A study of Mus musculus with 18 samples.

Results

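The regions described here are the 42403 sites where the transcription factor GATA6 was bound in mouse embryonic stem (ES) cells during their conversion towards primitive endoderm (PrE), all 42403 of the deposited table. For each region, the accessibility of the DNA was followed by ATAC-seq, in which a transposase cuts and tags open chromatin, at d0 and after 8, 16, 24, 48 and 96 h of doxycycline (Dox). The regions were not selected on these values. They were split by the class that the deposited table gives for accessibility at d0, with 26003 regions (61.3%) closed, 13248 (31.2%) moderate and 3152 (7.43%) accessible.

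The study asked how GATA6 binding, other factors and chromatin accessibility are related during this conversion. The cells were KH2 ES cells (C57BL/6 x 129/Sv) carrying a Dox-inducible GATA6 transgene tagged with 3xHA, of which the study used 2 selected clones, and all groups, d0 included, carried it. They were grown with serum and LIF on inactivated mouse embryonic fibroblast feeders, untreated (d0) or with 1 µg/mL Dox for 8, 16, 24 (d1), 48 (d2) or 96 h (d4). The 18 libraries of the series are MNase-seq libraries, 3 for each of these 6 groups, and the ATAC libraries are not among them. Each time point therefore has 1 pooled ATAC value per region, the authors' own, with no replicate spread, and no test was run. A difference below is a description of these pooled values, and more cells with an open region cannot be told apart from a more open region in each cell.

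GATA6 is a zinc finger factor that binds the sequence GATA and is needed to form PrE, the extraembryonic lineage that lines the yolk sac. It is called a pioneer factor because it can bind its sites in closed, nucleosome-covered chromatin. SOX17 is a PrE factor induced downstream of GATA6, whereas OCT4, SOX2 and ESRRB, the pluripotency factors (PTFs), keep enhancers of undifferentiated ES cells open.

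The best GATA6 motif of 7 regions is shown because these regions span the range of motif scores and of behaviours described below. Capitals mark the 13 bases of the motif match, with 8 flanking bases on each side, read 5′ to 3′ on the motif's strand from GRCm38 (mm10). The score is the deposited log-odds score of the match, which is higher for a better match to the GATA6 matrix.
Gata4, score 13.9, closed at d0, chr14:63271747-63271775, plus strand: cagcaaaaAATAGATAAGAAAagtgattc
Closed region with the largest fall among those with a signal of at least 0.451 at d0 or 96 h, score 14.6, chr4:154393653-154393681, minus strand: ccacccgaAAGAGATAAGATAgagcccgt
Prdm14, score 12.2, moderate, chr1:13132086-13132114, plus strand: aactaaaaAGAAGATAAGGTTtattaaca
Hnf4a, score 8.43, closed, chr2:163506794-163506822, plus strand: aagaatcaATAAGATAACCGGgcggggtg
Closed region with the largest rise above the same floor, score 7.96, chr3:145686594-145686622, plus strand: ggagaaggCGGAGCTAAGAAGgttcagag
Sox17, score 6.78, accessible, chr1:4493619-4493647, minus strand: cgcgtccaTAAAGAAAAGGGCcccgcggc
Nanog, score 7.04, accessible, chr6:122707342-122707370, plus strand: gggatgtcTTTAGATCAGAGGatgccccc
The 4 bases GATA were present in the capitals of the Gata4, Prdm14, Hnf4a and largest-fall regions. The best matches of the other three held no GATA.

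The d0 class was checked against DNase-seq of ES cells, a public measure of open chromatin that comes from other libraries. The median DNase signal was 0.459 in closed, 2.28 in moderate and 9.95 in accessible regions. The interquartile range was 0.328 to 0.675 in closed and 7.07 to 14.2 in accessible regions, so these ranges did not overlap. Closed therefore means low at the median, not zero: the median ATAC signal at d0 was 0.0466 per region in closed, 0.170 in moderate and 0.451 in accessible regions. Single regions of the classes overlapped in ATAC signal at d0, which reached 1.17 in closed and began at 0.0936 in accessible regions. This signal is the count of short fragments in the region corrected to library size, and it was not divided by the region's width, with a median width of 487 bp in closed and 572 bp in accessible regions.

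Across all 42403 regions, accessibility hardly moved in the first 16 h and rose at later times. The changes below are log2 ratios to d0 after adding 0.0208, the 5th percentile of all ATAC values, to both sides. The median change was 0.03 at 8 h, 0.12 at 16 h, 0.34 at 24 h (-0.04 with every time at the same total, as described below), 0.75 at 48 h (-0.14) and 0.56 at 96 h (0.00). No more than 1 region was at least 2-fold higher at 16 h. By 24 h, 2479 regions (5.85%) were at least 2-fold higher. At 48 h, 16786 (39.6%) were higher and 730 (1.72%) lower, and at 96 h 14251 (33.6%) were higher and 3411 (8.04%) lower. Falls of this size were more frequent at the last time, although at equal totals they already made up 13.0% at 48 h against 16.6% at 96 h.

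Part of the rise was shared by most regions. The ATAC signal summed over all regions was 6408 at d0, 6432 at 8 h, 7137 at 16 h, 8959 at 24 h, 14053 at 48 h and 10635 at 96 h. Relative to d0, this total was shifted by 0.48 at 24 h, 1.13 at 48 h and 0.73 at 96 h on the log2 scale. The 1415 regions that were accessible at d0 and in the promoter histone state shifted by 0.95 at 48 h and 0.65 at 96 h. The 38 regions near 8 housekeeping genes had median changes of 0.75 and 0.52 at these times (-0.28 and -0.17 at equal totals). Whether this shift lies in the cells or in the scaling cannot be told apart. With every time point brought to the same total, 16.2% of regions were higher and 16.6% lower at 96 h. Changes are therefore given as deposited, with the value at equal totals wherever it has the opposite sign, and the weight is put on differences between regions at one time, which the total does not set.

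**Figure D1:**
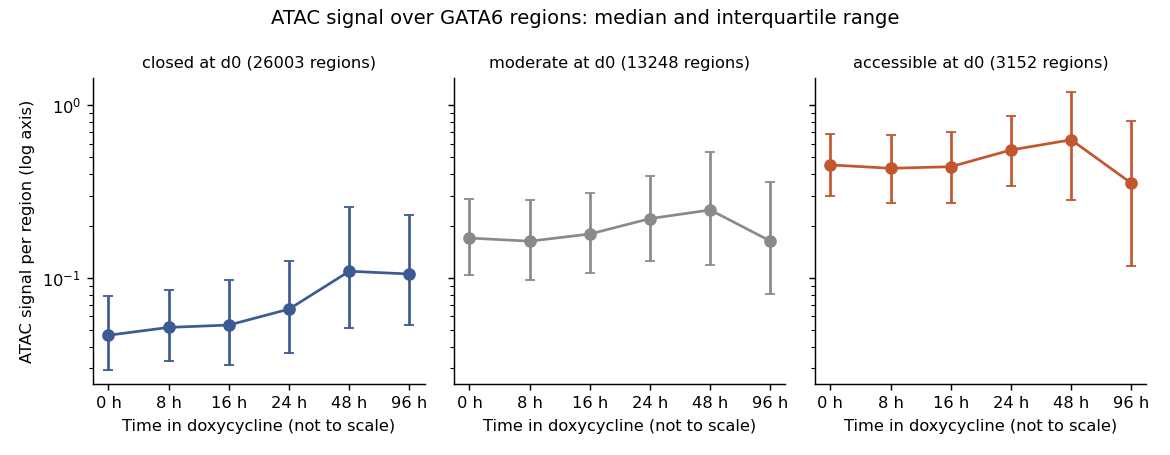
ATAC signal per region on a log axis against time in Dox, as the median (points) and interquartile range (bars) over regions, in the 3 classes of accessibility at d0. The closed median goes from 0.0466 at d0 to 0.105 at 96 h, while the accessible median goes from 0.451 through 0.631 at 48 h to 0.353 at 96 h; at equal totals the accessible median is lower than d0 at 48 h as well.

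The 3 classes moved apart in direction by 96 h. The class was made from ATAC at d0, so the d0 levels that separate the classes are no finding, and a change from d0 also holds any chance low or high value at d0. In closed regions the median signal was 0.0466, 0.0517, 0.0534, 0.0660, 0.109 and 0.105 from d0 to 96 h. As deposited, these values rose at 24 h and again at 48 h and then stayed level. The median change of closed regions was 0.36 at 24 h, 0.90 at 48 h and 0.88 at 96 h, and 0.81 at 96 h when 8 h was the baseline. At equal totals these medians were 0.02 at 24 h, 0.06 at 48 h and 0.32 at 96 h. Over 20 chromosomes the closed median at 96 h ran from 0.81 to 1.03.

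In accessible regions the median signal was 0.451, 0.432, 0.441, 0.551, 0.631 and 0.353 from d0 to 96 h. The signal was highest at 48 h and below d0 at 96 h. The median change was 0.55 at 48 h (-0.52 at equal totals) and -0.31 at 96 h (-0.98 at equal totals), and -0.22 at 96 h against 8 h. The accessible median at 96 h ran from -0.82 to 0.34 over chromosomes, so its sign was not shared by all chromosomes as deposited. Moderate regions lay between, with a median change of 0.50 at 48 h (-0.47 at equal totals) and 0.00 at 96 h (-0.61 at equal totals).

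By 2-fold calls, 45.5% of closed regions were higher and 0.477% lower at 96 h. The shares were 16.3% and 15.9% in moderate regions, and 7.84% and 37.3% in accessible regions. At equal totals they became 24.3% higher and 3.40% lower in closed, 4.11% and 34.5% in moderate and 0.0635% and 49.5% in accessible regions. The order of the classes was the same on both scales.

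**Figure D2:**
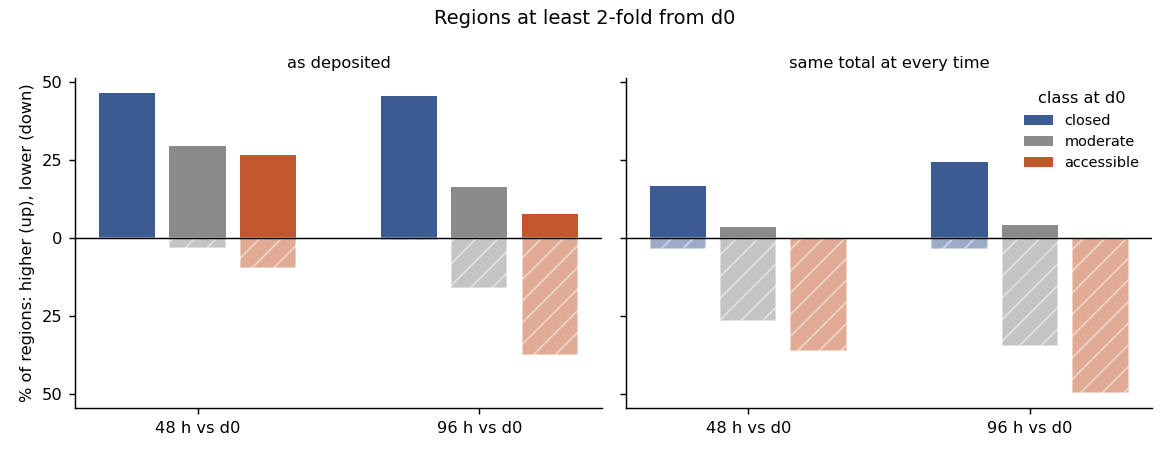
Percentage of regions in each d0 class at least 2-fold higher (solid, up) or lower (hatched, down) than d0 at 48 and 96 h, as deposited (left) and with all times at the same total (right). At 96 h, closed regions have the most higher calls (45.5%) and accessible regions the most lower calls (37.3%); at equal totals these become 24.3% and 49.5%.

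The distance between the classes shrank. The median log2 signal of accessible regions exceeded that of closed regions by 2.81 at d0, 2.64 at 8 h, 2.64 at 16 h, 2.72 at 24 h, 2.32 at 48 h and 1.57 at 96 h. Most of the narrowing thus came between 24 and 96 h. The rank order of regions was kept at first, with a Spearman correlation across regions between d0 and the later time of 0.979 at 8 h, 0.952 at 24 h, 0.752 at 48 h and 0.594 at 96 h. These regions are measured in the same libraries and are not independent, and both values rise with region width.

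Position divided the accessible class, into opposite directions at 96 h as deposited and into regions near d0 and regions below it at equal totals. Of the 3152 accessible regions, 1249 had their GATA6 summit within 1 kb of an annotated transcript start and 1903 lay farther away. The promoter regions had median signals of 0.532 at d0, 1.00 at 48 h and 0.780 at 96 h. The distal ones had 0.407, 0.404 and 0.167. At 96 h the median change was 0.68 at promoters (-0.02 at equal totals) and -1.17 at distal regions (-1.79 at equal totals). Of the distal regions, 1044 (54.9%) were at least 2-fold lower, against 131 (10.5%) of the promoter regions. In closed regions the position made little difference, with 0.94 at promoters and 0.88 at distal regions.

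Histone state gave the same division of accessible regions. The promoter state, with 1415 regions, had a median change of 0.62 at 96 h (-0.08 at equal totals). Active enhancers, with 1285, had -1.25, poised enhancers (212) -1.03 and primed enhancers (203) -1.67. Closed regions had positive medians in the 5 histone states with most of them: 1.01 for 7446 naive regions without marks, 0.94 for 9191 in facultative heterochromatin, 0.75 for 3365 in constitutive heterochromatin, 0.72 for 3652 primed and 0.69 for 2177 poised enhancers.

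The dynamics of GATA6 binding itself, a separate ChIP-seq readout from which the table groups regions as Early, Late or Transient, divided the time courses. Among closed regions, the 7705 Early ones had median changes of 0.34 at 16 h, 0.66 at 24 h, 1.58 at 48 h and 1.21 at 96 h. The 11598 Late ones had 0.04 (-0.05 at equal totals), 0.21 (-0.09 at equal totals), 0.82 and 1.19. The 6700 Transient ones had 0.19, 0.34 (-0.01 at equal totals), 0.36 (-0.40 at equal totals) and 0.04 (-0.42 at equal totals). Early regions were thus ahead of Late ones from 16 to 48 h and level with them at 96 h, while Transient regions ended near d0.

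**Figure D3:**
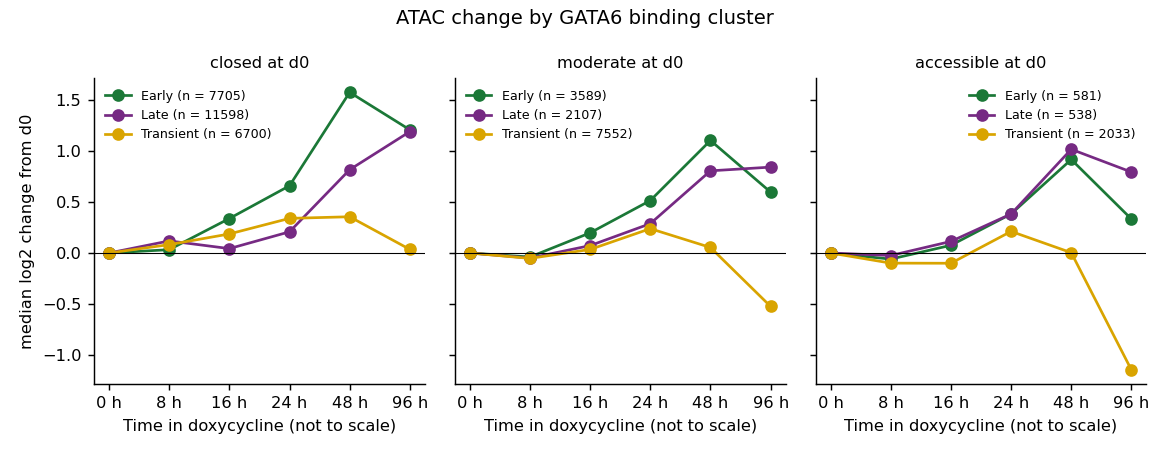
Median log2 change of ATAC signal from d0 (vertical) against time in Dox (horizontal) for Early, Late and Transient GATA6 regions in each d0 class, as deposited. Closed Early regions reach 1.58 at 48 h and closed Late regions 1.19 at 96 h, while accessible Transient regions fall to -1.15; at equal totals, 21 of the 45 points change sign, among them those of closed Transient regions from 24 h on, closed Late regions at 16 and 24 h and all accessible lines at 24 and 48 h.

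Among accessible regions, 2033 were Transient, and their median change was 0.00 at 48 h (-1.05 at equal totals) and -1.15 at 96 h. The 581 Early ones stood at 0.92 at 48 h (-0.19 at equal totals) and 0.33 at 96 h (-0.38 at equal totals). The 538 Late ones stood at 1.02 at 48 h (-0.07 at equal totals) and 0.79 at 96 h. At 96 h 54.4% of Transient, 11.0% of Early and 1.12% of Late accessible regions were at least 2-fold lower. Position added to this within clusters: distal Transient regions (1418) had -1.49 and promoter Transient regions (615) 0.38 (-0.31 at equal totals).

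SOX17 binding went with larger gains. In closed regions bound by SOX17 (12072), the median signal went from 0.0573 at d0 to 0.228 at 48 h and 0.227 at 96 h. In those without SOX17 (13931) it went from 0.0399 to 0.0658 and 0.0617. The median change at 96 h was 1.57 with SOX17 and 0.38 without (-0.10 at equal totals), a difference of 1.20. Of the SOX17-bound closed regions, 76.0% were at least 2-fold higher at 96 h, against 19.1% of the unbound ones. Among accessible regions, the change at 96 h was 0.23 with SOX17 (-0.47 at equal totals) and -1.10 without. At 16 h the medians of closed regions were 0.19 and 0.13, so the separation came later.

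Regions bound by pluripotency factors included both gains and losses. Closed regions where PTFs appeared only after induction (ectopic PTF, 5090) had median changes of 0.31 at 16 h, 0.71 at 24 h, 1.97 at 48 h and 1.60 at 96 h. Closed regions without PTF (19041) had 0.11, 0.27 (-0.05 at equal totals), 0.67 (-0.10 at equal totals) and 0.77. Closed regions bound by PTFs already at d0 (1872) had 0.35, 0.59, 0.92 (-0.06 at equal totals) and 0.28 (-0.31 at equal totals). At 24 h, 23.4% of closed ectopic PTF regions and 17.6% of those with PTFs at d0 were at least 2-fold higher, against 3.29% of those without PTF. The difference between these classes at 96 h was 0.84, or 0.51 when all regions under the 25th percentile of mean signal were left out. Among accessible regions, the 1867 bound by PTFs at d0 had -1.24 at 96 h, with 57.3% at least 2-fold lower. The 989 without PTF had 0.62 (-0.08 at equal totals) and the 296 ectopic ones 0.80.

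PTF binding at d0 was more frequent at distal than at promoter regions, so accessible regions were divided by both. Distal regions with PTFs at d0 (1494) had a median change of -1.42 at 96 h. Distal regions without PTF (334) had -0.10. Promoter regions with PTFs at d0 (373) had -0.04, and promoter regions without PTF (655) had 0.78. At equal totals these values were -2.00, -0.78, -0.73 and 0.07. The deepest of these losses was thus at distal regions with PTFs at d0.

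The factors also combined in closed regions. Late regions with SOX17 and ectopic PTFs (944) had median changes of 0.13 at 16 h, 0.52 at 24 h, 2.29 at 48 h and 2.23 at 96 h, and 877 of them (92.9%) were at least 2-fold higher at 96 h. Late regions with SOX17 and no PTF (5137) had 0.04 (-0.06 at equal totals), 0.22 (-0.09), 1.08 and 1.60. Late regions with neither (5401) had 0.03 (-0.06 at equal totals), 0.16 (-0.12), 0.43 (-0.21) and 0.72. Early regions with SOX17 and ectopic PTFs (2899) moved sooner, with 0.38 at 16 h, 0.81 at 24 h, 2.17 at 48 h and 1.78 at 96 h. Early regions with neither (1770) had 0.28, 0.44, 0.86 and 0.60. At 96 h, 84.0% of the Early regions with SOX17 and ectopic PTFs were at least 2-fold higher. This share was 68.4% for Early regions with SOX17 and no PTF (1441) and 26.5% for those with neither. The gain at 16 h thus differed more between Early and Late regions, and the gain at 96 h more between regions with and without SOX17.

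**Figure D4:**
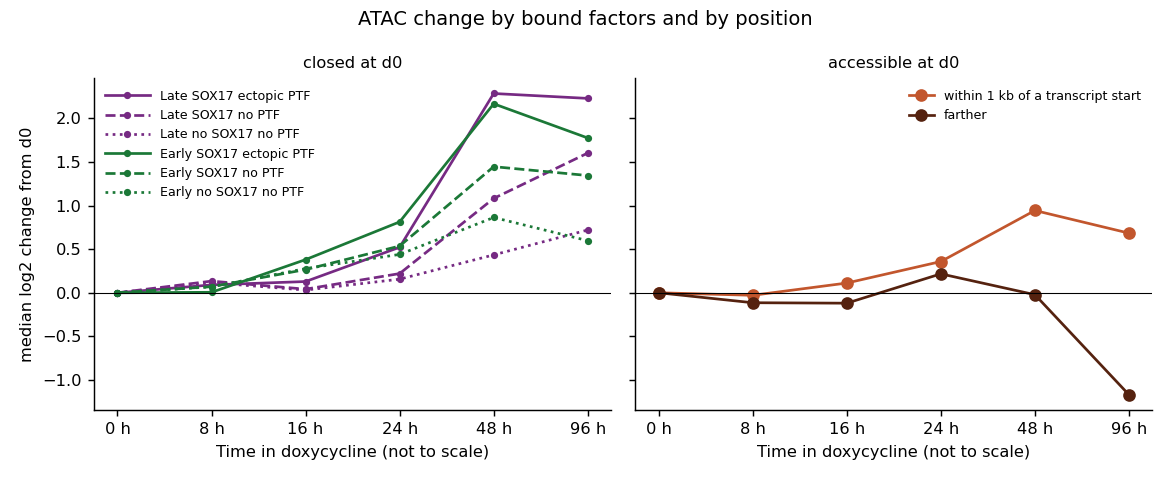
Median log2 change of ATAC signal from d0 against time in Dox, as deposited, for closed regions by GATA6 cluster, SOX17 and PTF binding (left) and accessible regions by distance to a transcript start (right). Late closed regions with SOX17 and ectopic PTFs reach 2.29 at 48 h against 0.43 for those with neither, which is -0.21 at equal totals; accessible distal regions fall to -1.17 at 96 h, while those within 1 kb of a transcript start are at 0.68, or -0.02 at equal totals. At equal totals 5 of the 30 closed and 5 of the 10 accessible points change sign.

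The response of GATA6 binding to Oct4 knockdown, measured in other libraries at 48 h, separated regions that opened and then lost signal from regions that went on opening. The 1614 closed regions whose GATA6 binding decreased upon Oct4 knockdown had median changes of 0.38 at 16 h, 0.73 at 24 h, 1.61 at 48 h and 0.74 at 96 h. The 3015 closed regions whose binding increased had 0.06 (-0.04 at equal totals), 0.25 (-0.09), 1.13 and 1.76. Over all classes, the signal was highest at 48 h in 76.7% of the 2651 decreased regions and highest at 96 h in 78.8% of the 3636 increased ones. Over all 42403 regions these shares were 45.0% and 28.0%. At equal totals they were 39.6% of the decreased and 83.7% of the increased regions, against 14.2% and 32.1% of all regions. As deposited, a like division was seen without the knockdown response. The signal was highest at 48 h in 73.2% of Early and 76.0% of ectopic PTF regions (28.9% and 33.9% at equal totals). At equal totals more of these regions were highest at 96 h, 32.2% of Early and 42.1% of ectopic PTF regions. In Late regions the signal was highest at 96 h in 62.6% (63.8% at equal totals).

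Over all closed regions, the score of the best GATA6 motif went with the early and the late changes in nearly opposite ways. Among closed regions at 16 h, the median change was 0.22 for the 8087 regions with a score of 12 and over, 0.17 for 10 to 12, 0.13 for 8 to 10, 0.09 under 8 (-0.01 at equal totals) and 0.06 for the 1806 regions with no motif (-0.03 at equal totals). Of the 8087 regions at 12 and over, 3258 were Early, against 190 of the 1806 with no motif. The part of this mix in the order at 16 h was not tested. In closed Late regions the median signal went from 0.0356 at d0 to 0.0382 at 16 h at 12 and over. With no motif it went from 0.0309 to 0.0308. At 96 h the order was largely turned, with 0.67 for 12 and over, 0.86, 1.04, 1.05 and 0.98 with no motif. The later order was also seen within closed Early regions, from 1.07 at 12 and over (3258 regions) to 1.38 at 8 to 10 (1783 regions). Among closed Late regions the values at 96 h lay between 1.11 and 1.26, a narrower range. Single regions printed above did not all follow these medians. The Gata4 region with a score of 13.9 stood at 0.58 at 16 h and 1.44 at 96 h. The Hnf4a region with a score of 8.43 stood at 0.53 and 2.64. The closed region with the largest rise, whose best match holds no GATA, stood at -0.03 and 4.04. It was named for its value at 96 h, so it is no example of the order by score.

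The first time at which a region was at least 2-fold above d0 was 24 h for 2478 regions, 48 h for 14367 and 96 h for 2973, while 22584 never were. Closed regions made up 2147 of those first called at 24 h and accessible regions 3. Of the 16786 regions called higher at 48 h, 5508 (32.8%) were no longer so at 96 h. This share was 23.2% in closed, 53.2% in moderate and 75.2% in accessible regions. Among closed regions it was 8.26% for Late, 23.9% for Early and 69.3% for Transient ones. The lower total at 96 h enters these shares, and not to the same extent in each class. Only 7 regions went from 2-fold above d0 at 48 h to 2-fold below it at 96 h. At equal totals, the highest of the 6 time points was 96 h for 67.5% of closed Late, 38.6% of closed Early and 5.27% of closed Transient regions.

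Regions near genes of the PrE gained accessibility. Within 50 kb of the transcript starts of 12 PrE genes lay 111 regions, 83 of them closed at d0. Their median change was 0.32 at 16 h, 0.71 at 24 h, 1.71 at 48 h and 1.44 at 96 h, and 0.77 at 96 h at equal totals. At 96 h, 72 of 111 (64.9%) were at least 2-fold higher and 2 (1.80%) lower, against 33.6% and 8.04% of all regions and 45.5% and 0.477% of all closed regions. All 8 regions near Dab2, an endocytic adaptor of the endoderm, were higher, with changes from 1.85 to 2.61. Near Gata4, a GATA factor partner of GATA6 in this lineage, 13 of 15 were higher, near Cubn, an endocytic receptor of the visceral endoderm, 8 of 10, and near Hnf4a 1 of 5.

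The region nearest to each PrE gene shows the course in full. The Gata4 region (chr14:63271477-63272037, intergenic, summit 51 bp from the start, closed) had signals of 0.0891, 0.0972, 0.144, 0.245, 0.446 and 0.277 from d0 to 96 h. It rose at each time to 48 h and then lost part of the gain. The Hnf4a region (chr2:163506469-163507210, summit 34 bp from the start and inside an intron of the antisense gene Hnf4aos, closed) had 0.0951, 0.0800, 0.146, 0.296, 0.891 and 0.702, a change of 2.98 at 48 h and 2.64 at 96 h. Hnf4a, a nuclear receptor of the visceral endoderm, thus had the largest change of the 12 at both times, although of its 5 regions 1 was called higher and 1 lower at 96 h.

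The Sox17 region (chr1:4493473-4493867, in the annotated UTR, 24 bp from the start) was already accessible and had 0.314, 0.226, 0.419, 0.498, 1.15 and 0.953. The Dab2 region (chr15:6386489-6387182, in the annotated UTR, moderate) had 0.354, 0.328, 0.475, 0.650, 1.93 and 1.38. The region 35 bp from a start of Gata6 itself (chromosome 18, 11051211 to 11053515, intron, moderate) had 0.860, 0.830, 1.19, 1.46, 3.42 and 3.49. These 3 regions stayed near or below d0 at 8 h and were highest at 48 or 96 h. The input chromatin at the Gata6 region was 1.80 at d0 and 2.94 at 96 h, and the part of this in its ATAC change was not tested.

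Of the 12 nearest regions, 10 were at least 2-fold higher at 96 h, against 33.6% of all regions, and 6 at equal totals, against 16.2%. Those of Pdgfra, the receptor that marks PrE cells, and Fgfr2 changed least at 96 h, with 0.94 and 0.72. The region assigned to Fgfr2 (chr7:133123213-133123622) lies 13 bp from an annotated start of Fgfr2 and 4 bp from a start of Ctbp2, in the annotated UTR of Ctbp2. Its change cannot be ascribed to either gene. The Foxq1 region, 9079 bp from the start, had the lowest signals of all, 0.0277 at d0 and 0.0880 at 96 h.

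PrE cells also secrete a basement membrane. Within 50 kb of 9 of its genes lay 130 regions, 74 of them closed at d0, with a median change of 1.07 at 48 h (0.06 at equal totals) and 1.07 at 96 h (0.44 at equal totals). At 96 h 69 (53.1%) were higher and 2 (1.54%) lower, against 33.6% and 8.04% of all regions and 45.5% of closed ones higher. Near Lama1, a laminin chain, 16 of 20 were higher, and near Col4a1, a collagen IV chain, 14 of 16. Near Lamc1 11 of 37 were higher, and near Hspg2 3 of 15.

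Regions near pluripotency genes had more lower than higher calls at 96 h. Within 50 kb of 15 genes lay 108 regions, 27 closed, 52 moderate and 29 accessible. Their median change was 0.63 at 48 h (-0.33 at equal totals) and -0.01 at 96 h. At 96 h 18 (16.7%) were higher and 25 (23.1%) lower, against 33.6% and 8.04% of all regions. By class, the median change at 96 h was 0.66 in the closed, 0.08 in the moderate (-0.57 at equal totals) and -1.26 in the accessible ones, and 17 of the 29 accessible ones were lower, against 37.3% of all accessible regions. All 108 were bound by GATA6 at some time, since the table holds only such regions.

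The Nanog region (chr6:122707247-122707684, in the annotated UTR, 25 bp from the start, accessible) had signals of 0.319, 0.400, 0.247, 0.318, 0.169 and 0.0548, a change of -2.17 at 96 h. Nanog is a homeobox factor of naive pluripotency. The Tdgf1 region (chr9:110946813-110948450, intergenic, 2036 bp from the start, accessible), near the gene of a Nodal co-receptor, had 1.34, 1.40, 1.26, 1.49, 0.750 and 0.228, a change of -2.45. The Klf2 region (chr8:72315857-72316655, intergenic, accessible) had 0.812, 0.801, 0.604, 0.662, 0.320 and 0.161. These regions kept most of their signal until 24 h and lost it at 48 and 96 h.

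The Pou5f1 region, near the gene of OCT4 (chr17:35504679-35505611, intergenic, accessible), had 0.744, 0.695, 0.527, 0.609, 0.337 and 0.226. The Esrrb region (chr12:86470210-86471784, intron, accessible) had 1.10, 1.11, 1.08, 1.09, 1.69 and 0.829, with a change of 0.61 at 48 h (-0.50 at equal totals) and -0.40 at 96 h. Those of Klf4 and Klf5, zinc finger genes also used by epithelia, changed by 0.82 and 1.00 at 96 h. The region assigned to Fgf4, with 1.23, lies 104 bp from a start of Fgf3 and 8876 bp from Fgf4. Of the 15 nearest regions, 9 were at least 2-fold lower at 96 h, against 8.04% of all regions, and 10 at equal totals, against 16.6%. Most of the 15 were accessible at d0, a class in which 37.3% were lower, or 49.5% at equal totals.

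**Figure D5:**
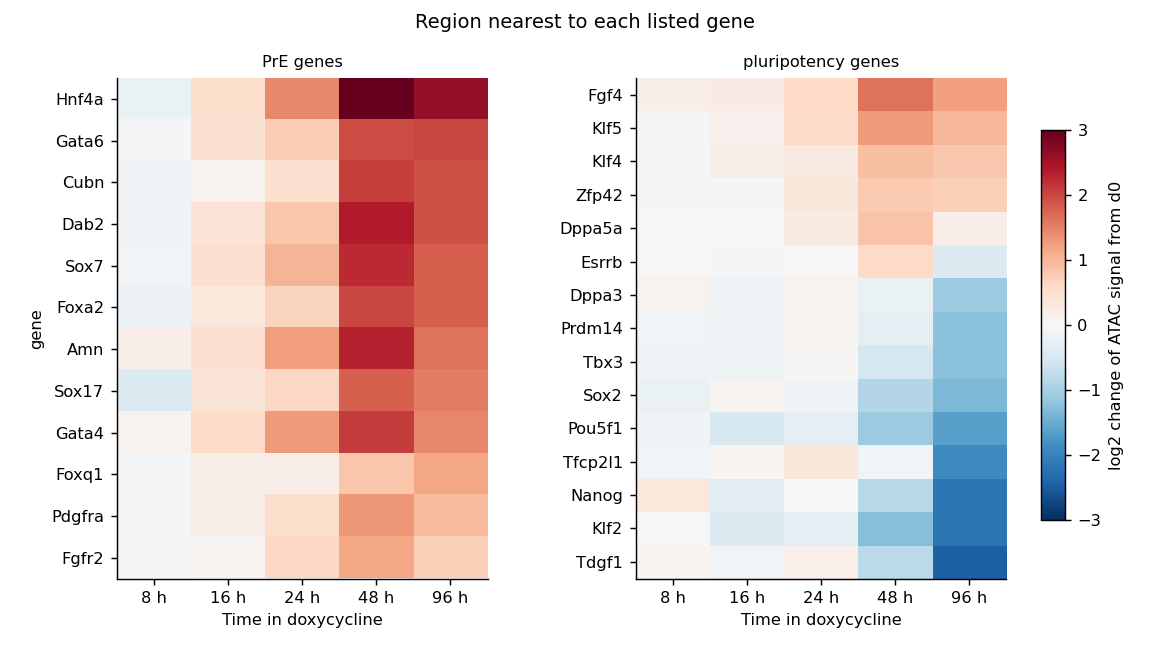
Log2 change of ATAC signal from d0, as colour from -3 (blue) to 3 (red), at 8 to 96 h of Dox (columns) for the GATA6 region nearest to each PrE gene (left) and pluripotency gene (right), ordered by the value at 96 h. Every PrE region is above d0 at 96 h, from 0.72 (Fgfr2) to 2.64 (Hnf4a), and pluripotency regions run from 1.23 (Fgf4) to -2.45 (Tdgf1); at equal totals Dppa5a turns from 0.19 to -0.51 at 96 h, and over all times 3 of the 60 PrE and 16 of the 75 pluripotency cells change sign.

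Outside these lists, the largest changes among regions with a signal of at least 0.451 at d0 or 96 h were the following. Among closed regions, the largest rise was at an intergenic Late region bound by SOX17 and ectopic PTFs (chr3:145685649-145686617), with 0.0473, 0.0659, 0.0461, 0.105, 1.03 and 1.10 and a change of 4.04 at 96 h. The largest fall among accessible regions was in an intron of Tdh, 224 bp from a start (chr14:63500201-63500951), with 0.634, 0.506, 0.424, 0.529, 0.226 and 0.0597 and a change of -3.02. Tdh encodes threonine dehydrogenase, an enzyme that mouse ES cells depend on. The largest rise among accessible regions was 168 bp from a start of Nedd1, with 0.351 at d0 and 1.42 at 96 h, and the largest among moderate regions was in an intron of Clip2, with 0.0925 and 0.968. The largest fall among moderate regions was intergenic (chr10:77190308-77191513), with 0.585 at d0 and 0.0853 at 96 h and a change of -2.51. The largest fall among such closed regions was -0.21, and that region stood at -0.90 at equal totals. The floor favours closed regions that rose, since their median signal at d0 was 0.0466. The small size of this fall is therefore no finding. Of all closed regions, 124 were at least 2-fold lower at 96 h. For 8 h, the floor of 0.451 was set on the d0 or 8 h signal, which 105 closed regions passed. The largest rise among them was 0.57, in an intron of Xpo6, with 0.297 at d0 and 0.452 at 8 h.

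Other cell types were checked through loci. The 19 regions near 8 genes of fibroblasts, the feeder cells, had a median change of 0.12 at 96 h (-0.24 at equal totals), with 4 (21.1%) higher and 3 (15.8%) lower, against 33.6% and 8.04% of all regions. The 26 near 5 trophectoderm genes had 0.96, with 11 (42.3%) higher and 4 (15.4%) lower. The 4 lower ones were all the regions near Tfap2c, with changes from -2.54 to -1.30. Near Eomes 4 of 6 were higher, near Elf5 6 of 11 and near Hand1 1 of 2. None of the 3 near Cdx2 was called. The 38 near housekeeping genes had 5 (13.2%) higher and none lower. The share of feeder cells in the ATAC libraries was not measured, and its part in these values was not tested.

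Input chromatin, sequenced without enrichment, also changed. Its median log2 change at 96 h was 0.12 in closed, -0.08 in moderate and -0.12 in accessible regions. It was 0.34 in the regions called higher in ATAC and -0.47 in those called lower, so input moved in the direction of the calls. Of the 14251 regions called higher in ATAC at 96 h, 1219 (8.55%) were also 2-fold higher in input, against 3.83% of all regions. Of the 3411 called lower, 533 (15.6%) were also lower in input, against 5.06% of all regions. The part of input in the ATAC calls was not tested.

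In XEN cells, a line of extraembryonic endoderm cells, the median ATAC signal was 0.110 in closed, 0.133 in moderate and 0.197 in accessible regions. The 3 classes thus lay closer together there than at 96 h, when the medians were 0.105, 0.163 and 0.353. Across regions, the Spearman correlation with XEN was 0.491 for d0 and 0.735 for 96 h. XEN has its own genotype and culture and its own scale, so no change was computed against it.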

How the data were processed

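ATAC-seq, per the study's methods, was made from 3 independent cultures per time and 2 at d4, reads were trimmed with cutadapt and aligned with Bowtie2 to mm10, low-quality and duplicate reads were removed, and insertions were shifted for the transposase. The authors counted short fragments over each GATA6 region, corrected them to library size and deposited 1 pooled ATAC signal per time point. The deposited input and DNase values and motif scores (log-odds) are used here as scores. GATA6, SOX17, PTF, histone, Oct4 knockdown and accessibility classes are the authors' own. Another 45 columns of values were not used.

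Changes were log2((time + 0.0208)/(d0 + 0.0208)), called past 2-fold. With 1 pooled value per time no test was possible. The lowest 2000 values at 8, 16, 24 and 48 h lay on a grid of 3 steps and at 96 h of 2, within 2e-08; d0 was not resolved. Dividing by the mean step, the median closed region held about 33, 33, 43, 70 and 41 reads (counting error 12.0% to 17.4%) and the median accessible one 136 to 406; these errors cover counting only.

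Transcript starts came from GENCODE M21. GATA began at base 5 of 80.7% of plus-strand and 80.4% of minus-strand motif matches, so positions were read as 1-based. A gene of the PrE list is not reported here. Members, lists and rules were chosen with earlier results of these data known. Named regions were first the largest rise and fall to 96 h per class. They were taken among regions with a d0 or 96 h signal of at least 0.451 (the accessible median at d0). The region nearest to each PrE and pluripotency gene within 50 kb was also named. The last was the largest rise of a closed region at 8 h, with the same floor on the d0 or 8 h signal. The calling step was tested on simulated data. Alternatives were other pseudocounts, a filter on low signal, equal totals, 8 h as baseline, distal regions only, the middle widths, other fold limits and other locus distances. Computations used pysam 0.24.0, scipy 1.17.1 and numpy 2.4.6, with tables in pandas 2.3.3 and plots in matplotlib 3.10.9 (Python 3.11.15).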

Additional observations from a re-analysis of the deposited data

How the results depend on the processing

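No paired analysis was possible because each time point has 1 pooled ATAC column, which carries no replicate number, and for the same reason no replicate could be left out. A value counts as moved here when it changed by more than its SD over chromosomes, which is no replicate error, or, for a share, by more than 1.5 times. All values are for 96 h unless stated. Of 80 settings of the 10 main values, 46 kept the value within that range, and the difference of 1.48 between accessible Early and Transient regions stayed within it at every setting tried.

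With every time at the same total, the median change was 0.00 over all regions (as deposited 0.56; just below 0, at -0.0044), 0.32 in closed and -0.98 in accessible regions, 16.2% of regions were higher and 16.6% lower, the difference with and without SOX17 in closed regions was 1.03 and that between ectopic and no PTF 0.70. At 48 h, accessible Late regions turned from 1.02 to -0.068 and accessible ectopic PTF regions from 1.05 to -0.050. Holding accessible promoter-state regions level, a setting chosen after seeing the data, gave 0.057, 0.38 and -0.91, 17.9% and 15.4%, and differences of 1.05 and 0.72.

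A pseudocount at the 1st percentile gave a median of 0.62 over all and 0.98 in closed regions and a difference between closed Late and Transient regions of 1.29. At the 20th percentile these were 0.46, 0.70 and 0.92, and the SOX17 difference was 1.06. Leaving out regions under the 25th percentile of mean signal gave 0.63, 1.29 and 1.72, with 1.29 for SOX17 and 0.51 for ectopic PTF. With 8 h as baseline the closed median was 0.81. Distal regions alone had an accessible median of -1.17. The middle range of widths gave 0.61 for ectopic PTF and 1.36 for Late against Transient. Per kb, the gap between accessible and closed was 1.19. At a 1.5-fold limit 14.3% of regions were lower, and at a 4-fold limit 9.89% were higher and 1.11% lower. The PrE and pluripotency loci kept their medians within the spread between genes at 20 and 100 kb. Depth limits single closed regions most, at about 33 to 70 reads at the median from 8 h on.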
